A study of Homo sapiens with 2 samples.

Results

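The genes described here are the long intergenic noncoding RNAs (LINC genes) that were expressed in NCI-H2030, an established human lung adenocarcinoma cell line, under a treatment named after the microRNA miR-494-3p and under its comparison treatment. They are the annotated genes whose deposited symbol is LINC followed by digits, with the rows of 1 symbol summed, and were chosen by a measured level of at least 0.5 TPM, a level corrected for transcript length and library size, in either of 2 RNA-seq libraries. This rule found 115 of the 614 LINC symbols in the tables, among 55773 annotated symbols in all, of which 16953 reached the same level. One culture was treated with miR-494-3p AS and is called AS, and one was treated with SC and is called SC. The labels spell out neither abbreviation, and nothing else in them differs between the cultures. Both were of the same cell line, and total RNA was made into strand-preserving libraries. The title of the series names SET, an inhibitor of the phosphatase PP2A, as the gene through which the microRNA acts. With 1 library in each group there was no spread between replicates. No test, p-value or error could therefore be computed, and every difference below is one between these libraries.

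LINC is a systematic symbol for RNAs that lie between coding genes and were thought to encode no protein. Some such RNAs act in the nucleus on chromatin or on nearby genes, some bind proteins in the cytoplasm, some carry microRNA sites, and several symbols have since been renamed because a function or a small protein was found. Most are made at low level and in few cell types, and tumours often express a set of their own.

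Coverage per FPKM, which is proportional to the aligned bases of a library, was 3.54 in AS and 3.62 in SC, so depth was similar. The epithelial keratins KRT8 (345 TPM in AS and 486 TPM in SC) and KRT18 (479 and 558 TPM) were abundant, whereas KRT19 was listed at 0 in both libraries. CDH1 had 0.0137 TPM in AS and 0.00741 TPM in SC, and the lung lineage factor NKX2-1 had 0.0317 TPM in AS and 0.0324 TPM in SC. EPCAM had 1.84 TPM in AS and 0.604 TPM in SC. The labelled epithelial origin therefore rested on 2 abundant keratins of 5 epithelial markers. The leukocyte genes PTPRC and CD3E and the fibroblast gene COL1A2 were at 0 in both libraries. Of the other markers on those lists, CD68, a lysosomal glycoprotein, had 203 TPM in AS and 285 TPM in SC, and the collagen gene COL1A1 had 15.8 and 26.3 TPM. Their part in the results was not tested. The precursor gene MIR494 was at 0 in AS and SC, which leaves no check of the treatment on it. SET stood at 79.1 TPM in AS and 30.4 TPM in SC. In bulk RNA, fewer cells with a transcript and less of it per cell cannot be told apart.

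With 1 TPM added, most of the 115 LINC genes had log2 ratios between -1 and 1, and those outside were more often higher than lower in AS. The measure was log2((AS + 1)/(SC + 1)) of TPM, which understates the ratio of genes of low level. Where genes are counted below as higher or lower, the limits are 1 and -1 in this measure or the one named, not a plain fold. At a ratio of at least 1, 12 genes were higher in AS, 2 were lower and 101 lay between. Genes under 1 TPM in both libraries were bound to lie between, and 80 of the 115 had at least 1 TPM in either library. The 12 were 10.4% of the LINC genes, against 14.4% of all 16953 annotated genes of this level, and the 2 were 1.74%, against 2.16%. In this measure the LINC genes were thus called about as often as annotated genes in general, which did not hold in every measure below. Their median log2 ratio was 0.17, against 0.30 for all genes. The ratio was above 0 in 69 LINC genes, or 60.0%, against 66.8% of all genes, and below 0 in 46. After subtraction of the median of all genes, 4 LINC genes (3.48%) were higher and 10 (8.70%) were lower, against 7.46% and 5.65% of all genes. The median of the LINC genes was then -0.13. The direction of the group as a whole therefore depends on the scaling. With 0.1 TPM added in place of 1, genes of low level count. Then 28 LINC genes (24.3%) were higher and 14 (12.2%) lower, against 27.1% and 6.1% of all genes.

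Of the 115 genes, 79 reached 0.5 TPM in both libraries, 24 in AS alone and 12 in SC alone. Genes admitted through AS alone were bound to have positive ratios, and those admitted through SC alone negative ones, so their signs carry no information. The 79 genes above the threshold in both libraries held 9 of the 12 higher genes and both lower ones. Just inside the threshold lay LINC00886, with 0.501 TPM in AS and 0.168 TPM in SC, and LINC00677, with 0.512 and 0.160 TPM. Just outside it lay LINC00862, with 0.493 TPM in AS and 0.236 TPM in SC, and LINC00987, with 0.489 and 0.407 TPM. Another 117 LINC symbols were above 0 but under the threshold, and 382 were listed at 0 in both libraries.

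The LINC genes were a low group with 1 abundant member. Their median level was 1.89 TPM in AS and 1.74 TPM in SC, against medians of 6.98 and 4.59 TPM over all 16953 genes. Together they summed to 806 TPM in AS and 719 TPM in SC. LINC00152 alone held 25.9% of that sum in AS and 30.8% in SC, and without it the sums were 597 and 497 TPM. At least 10 TPM was reached by 19 LINC genes in AS and 17 in SC. Among the 54 genes whose higher library held 0.5 to 2 TPM, 2 were higher in AS and none was lower, against 5.15% and 1.88% of all genes at that level. Among the 39 of 2 to 10 TPM, 6 were higher and 1 was lower, against 23.3% and 3.46%. Among the 22 of 10 TPM or more, 4 were higher and 1 was lower, against 14.1% and 1.47%.

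**Figure D1:**
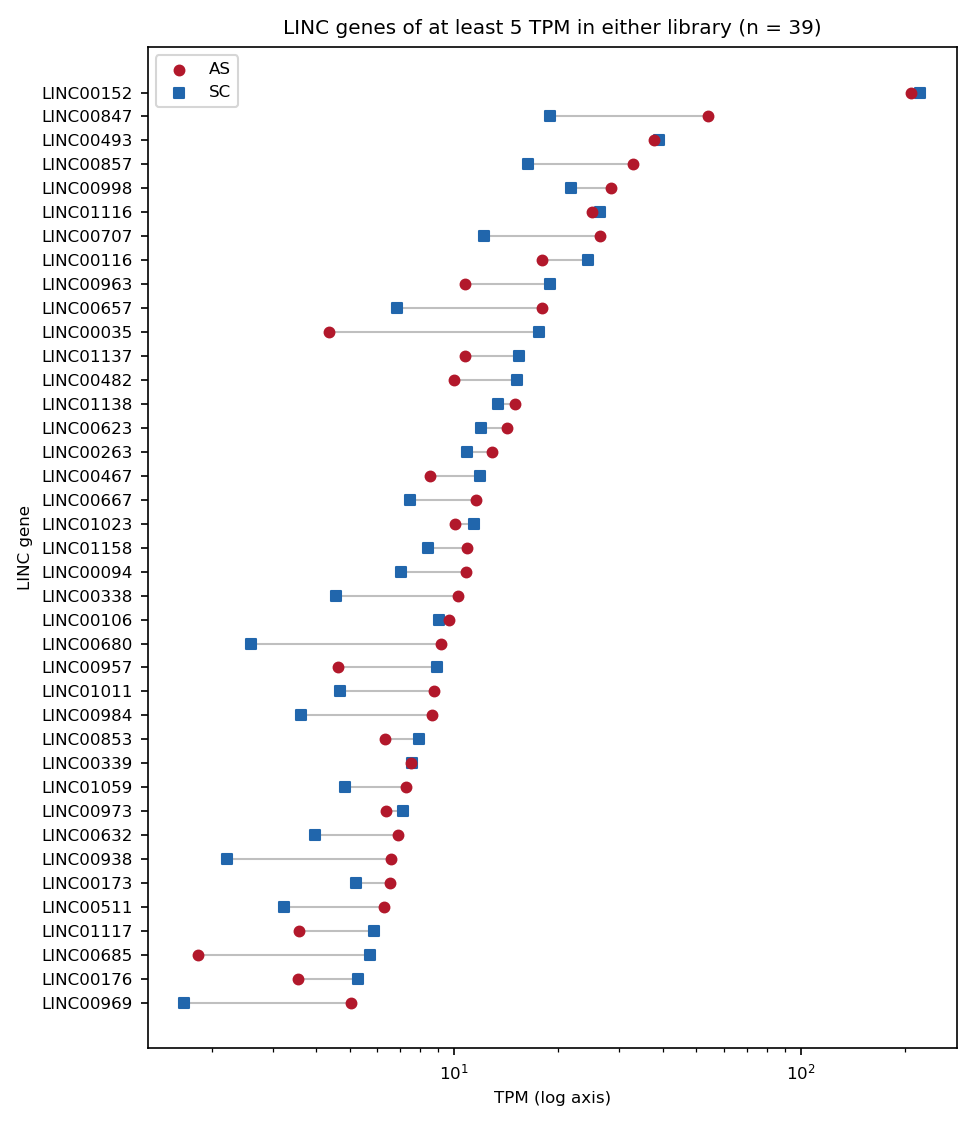
TPM on a log axis of the 39 LINC genes that reached 5 TPM in either library, with 1 point per library (circles AS, squares SC) and a line joining the points of a gene. LINC00152 stands far to the right at 209 TPM in AS and 222 TPM in SC, LINC00847 and LINC00680 show wide gaps with AS to the right, and LINC00035 shows the widest gap with AS to the left.

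LINC00657, now called NORAD, was among the genes higher in AS. It is a cytoplasmic RNA that binds many copies of the RNA-binding protein PUM2 and is needed for a stable chromosome number (chromosome 20, 34633544 to 34638882, minus strand, GRCh37). It had 17.9 TPM in AS and 6.84 TPM in SC, a log2 ratio of 1.27. Its deposited coverage, taken here as the read depth over the gene, was 29.8 in AS and 12.5 in SC. The tables also hold rows with no annotated name, taken here as loci assembled from the reads, and the one at this place had the same TPM as the gene in each library. The gene has 1 transcript in GENCODE 29, its coverage is in proportion to its TPM, and the locus spans the same interval. The 3 measures are therefore 1 value here and do not check each other. One limit is that 51.3% of the 31-base words of its transcripts also occur in transcripts of other genes, 38.0% in OVCH1-AS1 alone, so that reads could be divided among copies.

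Genes of proteins known to bind NORAD were read beside it. PUM2, which represses mRNAs that carry its site, had 6.07 TPM in AS and 0.689 TPM in SC, a log2 ratio of 2.07, but 0.76 in the coverage measure. TOP1, the DNA topoisomerase reported in a complex with NORAD, had 17.9 and 8.07 TPM, a ratio of 1.06 in both TPM and coverage. KHDRBS1 and RBMX, further RNA-binding partners, lay under 2-fold in TPM, with ratios of 0.76 and 0.31, against a median of 0.30 over all genes. In coverage RBMX had a ratio of 1.03.

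LINC00938 and LINC00707 were also higher in AS. LINC00938 (chromosome 12, 46119510 to 46121558, minus strand) had 6.56 TPM in AS and 2.21 TPM in SC, a ratio of 1.24, and here too coverage is in proportion and the locus spans the same interval, so the other measures repeat this value. It starts 1890 bases from ARID2, a subunit of a SWI/SNF chromatin remodeller, which had 0.30 TPM in AS and 0.103 TPM in SC. LINC00707, described in lung adenocarcinoma and other tumours (chromosome 10, 6821560 to 6884868, plus strand), had 26.3 TPM in AS and 12.2 TPM in SC, a ratio of 1.04 in TPM and coverage and 1.15 in the assembled locus. LINC00984, now INAFM2 and annotated as a coding gene, had 8.62 TPM in AS and 3.62 TPM in SC, with 1.06 in TPM and coverage and no assembled locus in SC. These 4 genes, LINC00657 included, were the ones with a coverage ratio of at least 1. They were 3.48% of the LINC genes, against 8.44% of all genes. This ratio adds 1 to coverage brought to the TPM scale, so it too understates genes of low coverage. LINC00310, for example, had 0.861 in AS and 0.104 in SC on that scale, but a ratio of 0.75.

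With 1 added in both measures, the remaining 8 higher genes had lower ratios in coverage than in TPM. LINC00883, now DUBR, had 4.70 TPM in AS and 0.696 TPM in SC, a log2 ratio of 1.75 in TPM, 0.63 in coverage and 2.0 for the assembled locus. With 1 TPM added this ratio and that of LINC00473 were the largest, whereas with 0.1 added LINC00473 stood at 3.57 and LINC00883 at 2.59. DUBR is known from mouse muscle, where its RNA acts on the neighbouring Dppa2 gene. LINC00680 had 9.14 TPM in AS and 2.59 TPM in SC, with ratios of 1.5, 0.97 and 1.44 in TPM, coverage and assembled locus. LINC00847 was the most abundant of the 12, at 54.0 TPM in AS and 18.98 TPM in SC. Its TPM ratio of 1.46 compares with 0.81 for coverage and 0.14 for the assembled locus, which stood at 52.4 TPM in AS and 47.5 TPM in SC.

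LINC00473, an RNA that is induced through CREB in several cell types and is studied in lung adenocarcinoma with loss of LKB1, showed the clearest disagreement. Its TPM was 2.85 in AS and 0.148 in SC, a log2 ratio of 1.75. The coverage was 0.342 in AS and 0.271 in SC, a ratio of 0.07 with 1 added on the TPM scale. Its coverage per FPKM was 0.0721 of the library's value in AS and 1.00 of it in SC, so coverage related differently to TPM in the libraries. The assembled locus had 2.75 TPM in AS and 2.21 TPM in SC, a ratio of 0.22, although that locus spanned 61.3% of the gene in AS and 100% in SC. The gene lies on chromosome 6, 166322290 to 166401536, minus strand, and overlaps PDE10A on the same strand. LINC01155, now KANTR, was alike, with 1.10 TPM in AS and 0.0469 TPM in SC (ratio 1.00) but 0.01 in coverage. Its coverage on the TPM scale was 0.0552 in AS and 0.0469 in SC, so that ratio was bound to lie near 0.

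The other 3 higher genes were LINC00310, LINC00969 and LINC00338. LINC00310 had 1.89 TPM in AS and 0.222 TPM in SC, with a TPM ratio of 1.24, a coverage ratio of 0.75 and a locus ratio of 1.06. LINC00969, now MUC20-OT1, had 5.04 and 1.67 TPM, with 1.18, 0.56 and 1.32 in the same order of measures. LINC00338, now the small nucleolar RNA host gene SNHG20, had 10.2 and 4.56 TPM, with 1.01, 0.96 and 0.82, where the locus spanned 100% of the gene in AS and 76.3% in SC. Coverage ratios were above 0 in each of the 12 genes, and 7 of the 12 passed 2-fold in the assembled locus. After subtraction of 0.30, the median of all genes, LINC00883, LINC00473, LINC00680 and LINC00847 kept a TPM ratio of at least 1. None of these 4 reached 1 in the coverage ratio before the subtraction.

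**Figure D2:**
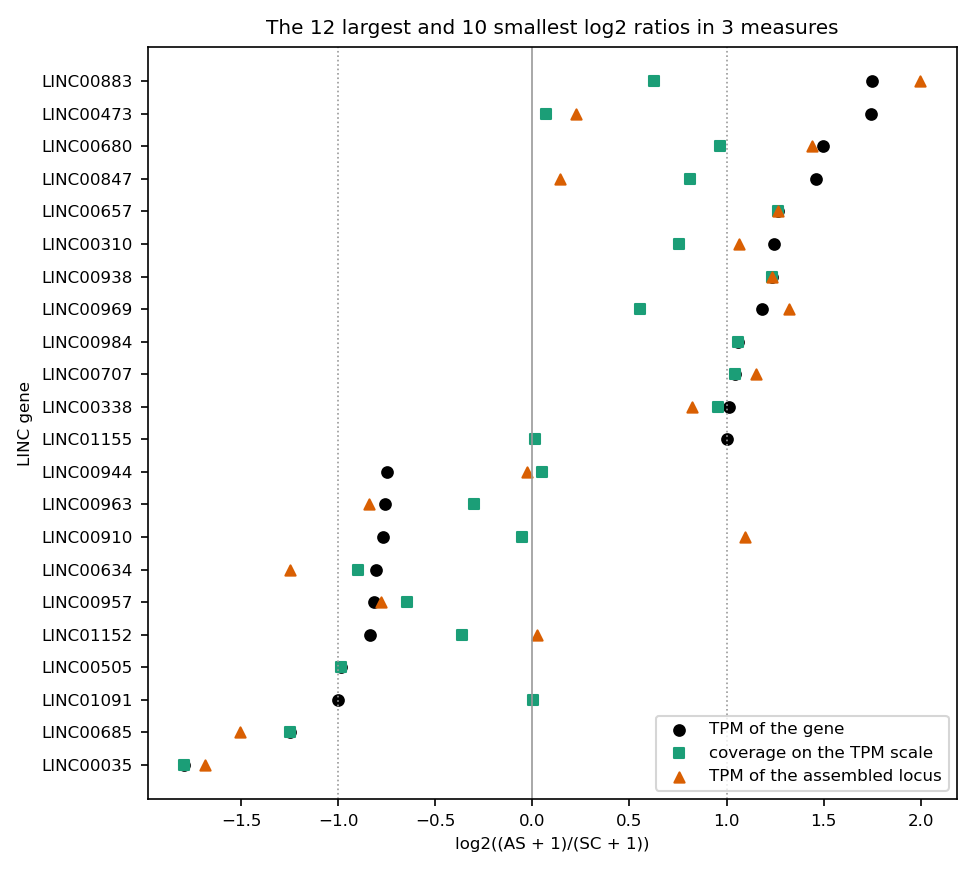
Log2((AS + 1)/(SC + 1)) of 22 LINC genes, the 12 highest and 10 lowest by TPM ratio, in 3 measures: TPM of the gene (circles), coverage on the TPM scale (squares) and TPM of the assembled locus (triangles, absent where a library had none). Dotted lines mark ratios of -1 and 1. The measures coincide for LINC00657 and LINC00938, for which they are 1 value by construction. For LINC00473 and LINC01091 the coverage ratio lies near 0, since 1 is added to coverages far below 1.

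LINC00035 was the lowest of the LINC genes with 1 TPM added. With 0.1 added its ratio was -1.99, and LINC01091 and LINC00944, both of lower level, stood below it at -3.30 and -2.47. LINC00035 is the RNA also known as ABHD11-AS1, described as raised in several carcinomas, and its current symbol is BICDL3P (chromosome 7, 73149368 to 73150384, plus strand). It had 4.36 TPM in AS and 17.6 TPM in SC, a log2 ratio of -1.79, and -1.68 for the assembled locus. Its coverage, 7.27 in AS and 32.3 in SC, is in proportion to TPM and adds no second value. ABHD11, whose end lies 40 bases away on the opposite strand, had 38.4 TPM in AS and 41.2 TPM in SC, a ratio of -0.10. The low level in AS was thus not matched by the neighbour.

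LINC00685 (chromosome X, 281725 to 282586, plus strand) had 1.83 TPM in AS and 5.72 TPM in SC. Its ratio was -1.25 in TPM and coverage and -1.51 for the assembled locus. The nearest coding gene, 12112 bases away on the opposite strand, is PPP2R3B, which encodes a regulatory subunit of PP2A. PPP2R3B had 60.9 TPM in AS and 49.0 TPM in SC, a ratio of 0.31, but -0.18 in coverage.

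Further genes came close to a log2 ratio of -1 with 1 added. LINC00505 was listed at 0 in AS and had 0.981 TPM in SC, so no fold is given. LINC01091 had 0.0142 TPM in AS and 1.03 TPM in SC, just short of a ratio of -1. Its coverage was 0.0236 in AS and 0.0231 in SC, which with 1 added on the TPM scale was bound to a ratio near 0 (0.00). Its coverage per FPKM was 1.00 of the library's value in AS and 0.0122 of it in SC. Coverage therefore gives no check of the TPM ratio of LINC01091. LINC00957 had 4.63 TPM in AS and 8.93 TPM in SC (ratio -0.82, coverage -0.64), and its nearest coding gene DBNL, an actin-binding adaptor, had 134 and 232 TPM (-0.79). LINC01152 (-0.84), LINC00634 (-0.81), LINC00910 (-0.77) and LINC00944 (-0.75) had at most 2.32 TPM in either library. In the same order their coverage ratios were -0.36, -0.90, -0.05 and 0.05, and their locus ratios 0.02, -1.25, 1.09 and -0.03. The loci of LINC01152, LINC00634 and LINC00910 spanned clearly less of the gene in AS than in SC. LINC00944 had a coverage on the TPM scale of 0.0579 in AS and 0.0231 in SC, so its ratio was bound to lie near 0.

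Of a list of 30 LINC genes described in lung or other cancers, 16 passed the level rule. LINC00473 and LINC00707 had ratios of at least 1, 14 lay between -1 and 1 and none was at -1 or under. With nothing added, some of these 14, all of low level, passed 2-fold. Their TPM in AS over that in SC was 6.15 for LINC00641, 0.18 for LINC00662 and 0.456 for LINC00346. The higher genes were 12.5% of the list, against 14.4% of all genes, and 2.16% of all genes were lower. The median log2 ratio was 0.11, with a range of -0.76 to 1.75, against 0.30 for all genes. LINC00152 is the most abundant of them and is described with its related gene. LINC01116 had 25.0 TPM in AS and 26.3 TPM in SC. LINC00667 had 11.5 and 7.44 TPM, LINC00511 6.27 and 3.24 TPM, and LINC00467 8.50 and 11.9 TPM.

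The lowest ratio in this list belonged to LINC00963, with 10.8 TPM in AS and 18.9 TPM in SC, at -0.76 in TPM, -0.30 by coverage and -0.84 by assembled locus. LINC00511, which is described as a partner of the repressive methyltransferase EZH2, had a ratio of 0.78 in TPM. Its coverage on the TPM scale was 0.160 in AS and 0.0937 in SC. With 1 added, the coverage ratio of 0.08 was bound to lie near 0 and does not speak against the TPM ratio. LINC00641 had 1.01 TPM in AS and 0.164 TPM in SC, LINC00665 had 1.79 and 1.04 TPM, and LINC00941 had 0.990 and 0.598 TPM. LINC00265 (0.23), LINC00337 (-0.00), LINC00319 (-0.34), LINC00346 (-0.60) and LINC00662 (-0.65) filled the rest of the range of TPM ratios. For LINC00662 the coverage ratio was 0.08, from 0.143 in AS and 0.0834 in SC on the TPM scale, so it too was bound to lie near 0.

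Outside that list, LINC00857, which is also described in lung adenocarcinoma, was among the most abundant members and came close to 2-fold. It had 32.8 TPM in AS and 16.4 TPM in SC, with a TPM ratio of 0.96, a coverage ratio of 0.75 and a locus ratio of 0.92. The nearest coding gene, ANXA11, a calcium-dependent phospholipid-binding protein whose start lies 2138 bases away on the opposite strand, stood the other way. ANXA11 had 66.4 TPM in AS and 141 TPM in SC, a ratio of -1.08.

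Several of these RNAs are now known to be mRNAs of small proteins. RefSeq gives a protein for 12 of the 115 symbols. One of them, LINC01059, is merged in RefSeq into GRAMD1B, a lipid transfer protein, and its assembled locus of 102 TPM in AS and 101 TPM in SC compares with 7.29 and 4.85 TPM for the gene row. Of the other 11, LINC00984 and LINC01155 passed 2-fold with AS higher and none was lower. That is 18.2% higher, against 14.4% of all genes, of which 2.16% were lower. The median ratio was 0.047, against 0.30 for all genes. The most abundant was LINC00493, now SMIM26, a mitochondrial microprotein, with 37.7 TPM in AS and 39.1 TPM in SC.

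LINC00998, now SMIM30, a small membrane protein, had 28.5 TPM in AS and 21.8 TPM in SC, a ratio of 0.37. LINC00116 encodes mitoregulin (MTLN), a microprotein of the inner mitochondrial membrane that binds cardiolipin and affects fatty acid oxidation. It had 17.9 TPM in AS and 24.4 TPM in SC, a ratio of -0.43 in TPM and coverage and -0.41 for the assembled locus, which spanned 3.03% of the gene in AS and 3.06% in SC. LINC00094, now BRD3OS, had 10.9 TPM in AS and 7.03 TPM in SC (0.56), but its coverage was 8.09 in AS and 10.1 in SC (-0.15). LINC00672, now LASP1NB, had 2.89 and 0.948 TPM, or 3.05 times as much in AS, but with 1 added its log2 ratio was just under 1 (0.997). LINC00176, now C20orf204, had 3.55 and 5.29 TPM, but a coverage of 5.08 in AS and in SC. The paralogues LINC00086 and LINC00087, now SMIM10L2A and SMIM10L2B, had ratios of 0.05 and -0.31.

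LINC00152, now CYTOR, is a cytoplasmic RNA that is abundant in many carcinomas and is linked to adhesion and migration (chromosome 2, 87754887 to 87906324, plus strand). It was the highest member, with 209 TPM in AS and 222 TPM in SC, a log2 ratio of -0.08, and the assembled locus, which spanned less of the gene in AS than in SC, gave -0.12. MIR4435-1HG, a gene of closely related sequence, had 122 TPM in AS and 177 TPM in SC, a ratio of -0.53 in TPM and 0.09 in coverage. In the transcripts of LINC00152, 29.2% of the 31-base words occur in other genes, 18.7% in MIR4435-2HG alone. The values of both genes are uncertain, since the handling of reads that match several copies is not stated.

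Of 3 symbols listed as microRNA hosts, LINC00632 alone passed the level rule. It is the precursor of the circular RNA CDR1as, which carries sites for a microRNA, and is itself no source of one. It had 6.91 TPM in AS and 3.98 TPM in SC, a ratio of 0.67, but -0.02 in coverage and -0.44 for the assembled locus. The direction of LINC00632 thus differed between measures. The circular form was not measured here.

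The other members of at least 10 TPM were LINC01138 (15.0 TPM in AS and 13.4 TPM in SC), LINC00623 (14.2 and 11.95 TPM), LINC00263 (12.8 and 10.9 TPM), LINC01158 (10.9 and 8.43 TPM), LINC01137 (10.7 and 15.4 TPM), LINC01023 (10.1 and 11.4 TPM) and LINC00482 (9.98 and 15.2 TPM). Their log2 ratios lay between -0.56 and 0.34. LINC00482 and LINC01137 stood lowest in AS among them, at -0.56 and -0.48. LINC00263, now OLMALINC, lies 8781 bases from SCD, the stearoyl-CoA desaturase, and is described as a regulator of it. SCD had 194 TPM in AS and 269 TPM in SC, a ratio of -0.47, against 0.21 for LINC00263.

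Between 5 and 10 TPM lay LINC00106 (0.09), LINC01011 (0.78), LINC00853 (-0.28), LINC00339 (-0.01), LINC00973 (-0.14), LINC00173 (0.27) and LINC01117 (-0.59), given here by their TPM log2 ratios. LINC00173 was the one among them whose coverage ratio clearly opposed it, at -0.59, with a coverage of 3.80 in AS and 7.22 in SC. LINC01011 overlaps NQO2, a quinone reductase gene that had 105 TPM in AS and 142 TPM in SC. The 55 members not named by the rule for named genes had at most 4.57 TPM and ratios of -0.62 to 0.99, 37 of them above 0.

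Coverage and TPM need not move together where a gene has several transcripts, because reads are divided among transcripts of different lengths. In 53 of the 115 genes, coverage and FPKM stood in the same proportion as in the library as a whole within 1% in both libraries, and these genes had a median of 1 annotated transcript. For such genes coverage and TPM give 1 ratio by construction. The other 62 had a median of 4. In proportion were 33.4% of all genes. Among the 53, 4 were higher and 2 were lower, against 9.78% and 2.17% of all such genes, with a median ratio of 0.12. Among the 62, 8 were higher and none was lower, against 16.8% and 2.15%, with a median of 0.30 in TPM and 0.062 in coverage. The 1 added to coverage on the TPM scale draws genes of low coverage towards 0. The part of this in the lower median was not tested.

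Over all 115 genes the median coverage ratio was 0.068, against 0.25 for all genes. In coverage 4 LINC genes (3.48%) were higher and 2 (1.74%) lower, against 8.44% and 1.01% of all genes. The lower ones were LINC00035 and LINC00685. An assembled locus was present in both libraries for 95 of the 115. In that measure 15 (15.8%) were higher and 7 (7.37%) were lower, against 15.3% and 2.72% of all genes, with a median of 0.024 against 0.25. The locus could span different shares of a gene in the libraries. For 72 of the 95 these shares differed by at most 10 percentage points. Among those 72, 12 (16.7%) were higher and 3 (4.17%) lower, against 11.3% and 2.16% of all such genes, with a median of 0.051 against 0.20. Across LINC genes, Spearman's rho between the TPM and the coverage ratio was 0.85 (n = 115), and between the TPM and the locus ratio 0.71 (n = 95). These points share their libraries and reads, so rho is given as a description.

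**Figure D3:**
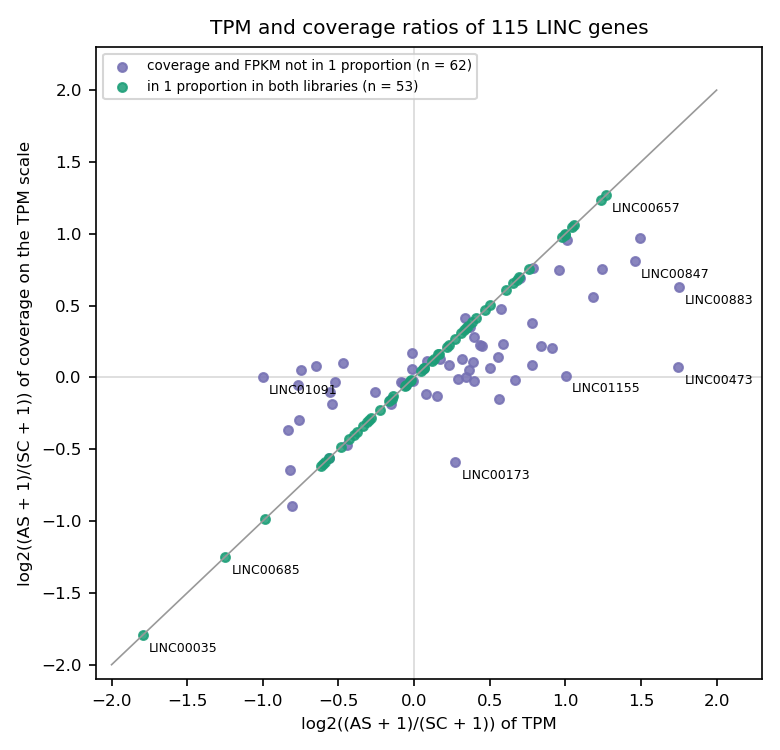
Log2 ratio of coverage on the TPM scale against the log2 ratio of TPM for 115 LINC genes, coloured by whether coverage and FPKM stood in 1 proportion within 1% in both libraries (n = 53) or not (n = 62). Those in proportion lie on the diagonal by construction, LINC00657, LINC00035 and LINC00685 among them. Of the others, many lie below it at positive TPM ratios, with LINC00473 at 1.75 in TPM and 0.07 in coverage. The 1 added draws genes of low coverage towards 0.

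Although called intergenic, 59 of the 115 genes overlapped another annotated gene on either strand and 29 overlapped one on their own strand, by the deposited coordinates. Values of overlapping genes are uncertain, since no source states whether the authors' counting used the strand. GENCODE release 29 calls 67 of them lincRNA, 11 antisense, 10 protein coding, 9 processed transcript and 6 pseudogene. For 13 genes the nearest coding gene overlapped, for another 44 it lay within 10000 bases, and for 15 it lay more than 100000 bases away. Among those without overlap the median gap was 11998.5 bases, and the widest was 1413325 bases, between LINC00662 and UQCRFS1.

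The ratios of a LINC gene and of its nearest coding gene showed little relation. The neighbour was measured, at 0.5 TPM or more, for 86 members, and rho between the log2 ratios was 0.15 (n = 86, from the same libraries). Of the 12 higher genes, 8 had a measured neighbour, whose median ratio was 0.11. Of these neighbours, 1 itself had a ratio of at least 1. This was PRIM2, a subunit of DNA primase, with 15.5 TPM in AS and 6.79 TPM in SC, which lies 758977 bases from LINC00680. LINC00926 is the member closest to TCF12, a basic helix-loop-helix factor that had 4.87 TPM in AS and 0.240 TPM in SC (2.24), and itself had 1.38 and 0.206 TPM (0.98).

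**Figure D4:**
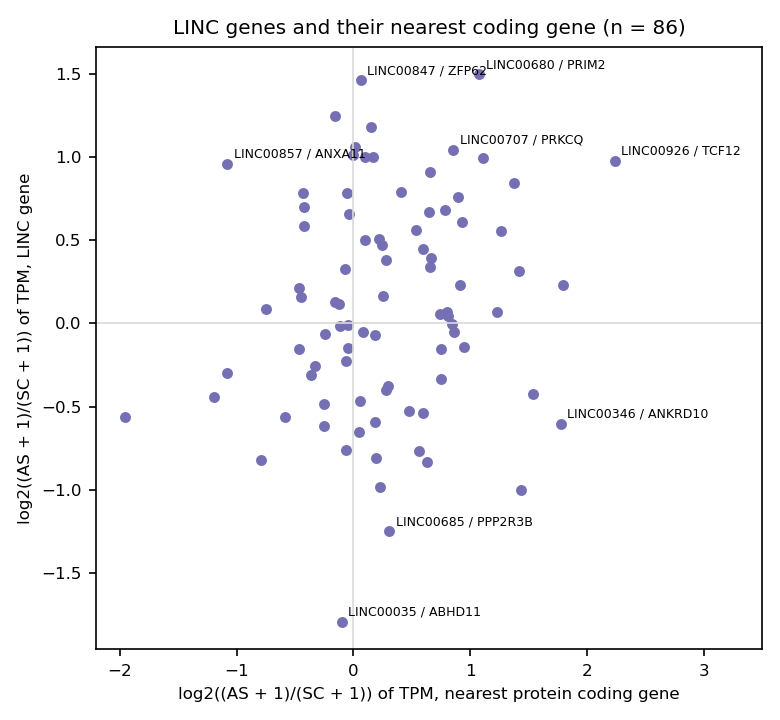
Log2 ratio of TPM of 86 LINC genes against that of their nearest protein coding gene, where that gene had at least 0.5 TPM in either library. The points scatter with no common direction (rho 0.15): LINC00680 and PRIM2 both lie above 1, whereas LINC00857 lies at 0.96 beside ANXA11 at -1.08.

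In 18 pairs, a member and a measured gene started back to back within 1000 bases on opposite strands, with a median distance of 220 bases over the 21 members in them, and 10 of the pairs had ratios of the same sign. LINC00883 starts 51 bases from LINC00882, which had 1.45 TPM in AS and 0.932 TPM in SC, a ratio of 0.34 against 1.75 for LINC00883. LINC00337 starts 268 bases from ICMT, the enzyme that methylates prenylated proteins such as RAS. ICMT had 55.8 TPM in AS and 30.6 TPM in SC, against 3.37 and 3.39 TPM for LINC00337. LINC01137 starts 141 bases from ZC3H12A, an RNase that degrades inflammatory mRNAs, which had 6.86 and 8.35 TPM, a ratio of -0.25 against -0.48 for LINC01137. LINC01116 and LINC01117 overlap at their starts, and their ratios were -0.07 and -0.59.

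The log2 ratio of LINC genes varied with the GC content of their transcripts, as it did for all genes. A GC content was available for 108 of the 115, or 93.9%, with a median of 51.6%, against 50.9% for all genes. Spearman's rho between GC content and TPM ratio was -0.44 for the LINC genes (n = 108) and -0.50 for all genes (n = 16113), and for the LINC genes it was -0.53 in coverage. In the 36 LINC genes of at most 48.8% GC the median ratio was 0.36, with 4 higher and none lower, against a median of 0.64, with 26.1% higher and 1.31% lower, over all genes of such GC content. In the 36 above 53.3% it was -0.27, with none higher and 1 lower, against -0.07, 3.66% higher and 3.03% lower. Between these bounds the median was 0.36, with 7 higher and 1 lower, against 0.30, 10.7% and 1.78%. LINC00657 and LINC00938, with 41.6% and 38.0% GC, lay in the low group, and LINC00035, with 63.9%, lay in the high one. The part of GC content in these ratios was not tested.

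**Figure D5:**
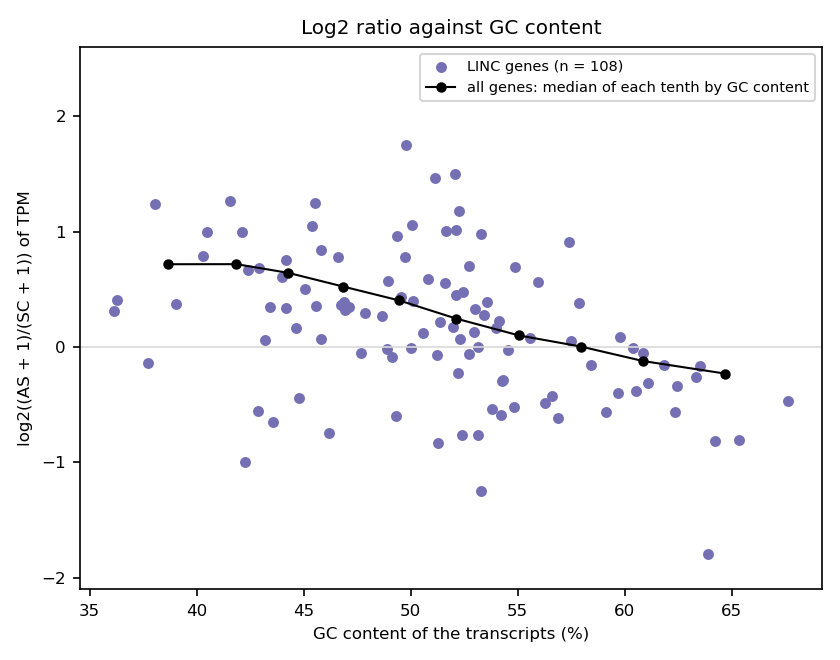
Log2 ratio of TPM against the GC content of the transcripts for 108 LINC genes (points), with the medians of all genes in 10 equal groups by GC content (joined circles). These medians run between 0.72 in the group of lowest GC content and -0.23 in the highest, and the LINC genes scatter on both sides of it, with LINC00035 lowest at 63.9% GC.

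Sites for miR-494-3p were searched in the longest GENCODE 29 transcript of each member, because the treatment is named after this microRNA. That transcript can extend past the deposited gene, so a site may lie outside the measured part. For LINC00938 it has 9730 bases, more than the deposited interval of 46119510 to 46121558 holds. A microRNA binds RNAs through its seed, bases 2 to 8, shown in capitals in the mature sequence from RefSeq (GRCh38.p14, chr14:101029681-101029702, plus strand). The 8-base match of the site is in capitals in the transcript windows, which are shown for 6 of the 8 members that hold it.
miR-494-3p: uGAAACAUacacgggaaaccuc
LINC00938: tcagattacttATGTTTCAattttcctgtg
LINC00632: gtataatattcATGTTTCAtagaaggaaaa
LINC00174: gcccctggggaATGTTTCAgtcccagtctg
LINC00152: tccaaaagcacATGTTTCAagagacccagg
LINC00176: cacagaaaagaATGTTTCAggccatgttca
LINC01152: gtgctaaaataATGTTTCAttagtttcaag

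The 8-base match ATGTTTCA was present in 8 of 108 members with a transcript, or 7.41%, against 7.97% of all 16113 genes. With the 7-base matches ATGTTTC and TGTTTCA, which the longer one contains, 29 members held a site, or 26.9%, against 34.2% of all genes. Of the members with the 8-base match shown, LINC00938 was past 2-fold higher in AS, whereas the ratios were 0.67 for LINC00632, 0.07 for LINC00174, -0.08 for LINC00152, -0.47 for LINC00176 and -0.84 for LINC01152. The members with any site had a median TPM ratio of 0.27, against 0.087 for the 79 without one. In coverage the medians were 0.11 and 0.061. Transcripts with a site were longer, with a median of 3508 bases against 2051, and of lower GC content, at 48.9% against 52.3%. Over all genes the medians with and without a site were 0.52 and 0.17.

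RefSeq promoters, from 250 bases before to 50 bases after the start, were matched for 87 members and searched for short motifs chosen after the values were seen. The cyclic AMP response element core TGACGTC, a site of CREB, was searched on both strands and occurred in 4 of 87, or 4.60%, against 3.45% of 35116 promoters. They were those of LINC00265, LINC00473, LINC00630 and LINC00984. Its shorter form TGACG, which the core contains, occurred in 34 members, or 39.1%, against 24.6%. The E-box CACGTG occurred in 8, or 9.20%, against 7.26%, and CCAAT in 34, or 39.1%, against 34.6%. The 35116 promoters were taken with no filter on level, unlike those of the members, so these shares are of unlike sets. The promoter of LINC00473 is shown because this gene is known for its induction through CREB. It holds the core 167 and 94 bases before the start, in capitals as it reads on the strand shown. Those of LINC00657 and LINC00685 are shown with the E-box in capitals, as examples of a member higher and a member lower in AS.
LINC00473, GRCh38.p14, chr6:165987990-165988289, minus strand: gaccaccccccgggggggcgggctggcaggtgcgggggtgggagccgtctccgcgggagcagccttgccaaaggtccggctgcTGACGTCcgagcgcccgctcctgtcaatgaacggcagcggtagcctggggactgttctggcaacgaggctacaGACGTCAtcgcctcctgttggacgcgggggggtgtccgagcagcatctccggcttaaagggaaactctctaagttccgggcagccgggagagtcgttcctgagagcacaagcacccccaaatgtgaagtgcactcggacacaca
LINC00657, GRCh38.p14, chr20:36050911-36051210, minus strand: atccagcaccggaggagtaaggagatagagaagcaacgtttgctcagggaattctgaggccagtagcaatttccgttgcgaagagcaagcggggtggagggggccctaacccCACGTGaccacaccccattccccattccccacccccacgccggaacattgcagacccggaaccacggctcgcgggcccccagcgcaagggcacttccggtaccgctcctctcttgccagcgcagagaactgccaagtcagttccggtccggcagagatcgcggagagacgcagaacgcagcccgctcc
LINC00685, GRCh38.p14, chrX:318895-319194, plus strand: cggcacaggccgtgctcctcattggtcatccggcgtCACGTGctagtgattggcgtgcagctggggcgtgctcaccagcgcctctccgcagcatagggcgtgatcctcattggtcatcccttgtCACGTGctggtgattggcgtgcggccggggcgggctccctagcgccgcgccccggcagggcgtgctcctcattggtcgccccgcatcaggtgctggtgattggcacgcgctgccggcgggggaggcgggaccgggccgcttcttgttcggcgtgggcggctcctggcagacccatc

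The proteins that process and degrade long noncoding RNAs were read from a list of 18 genes, all of them measured. A ratio of at least 1 was found for 3, or 16.7%, and none was lower, against 14.4% and 2.16% of all genes. The median ratio was 0.60, or 0.49 in coverage, against 0.30 and 0.25 for all genes. SKIV2L2, the helicase that feeds RNAs to the nuclear exosome, had 22.4 TPM in AS and 5.46 TPM in SC, a ratio of 1.86 in TPM and 1.53 in coverage. XRN2, the exonuclease that ends transcription behind polymerase II, had 17.4 and 6.5 TPM, with 1.30 in TPM and 0.84 in coverage. ZCCHC8, a partner of SKIV2L2 in the nuclear exosome targeting complex, had 6.42 and 2.40 TPM, with 1.12 and 0.63. The exosome subunit EXOSC10 lay at -0.22 and the cleavage factor CPSF1 at -0.30.

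The counts of the LINC genes lay between those of antisense RNAs and of coding genes. Of 259 antisense symbols of the same level, 5.79% were higher in AS and 6.18% were lower, with a median ratio of 0.11. Of 12123 coding genes, 15.9% were higher and 1.6% were lower, with a median of 0.32. The LINC genes, at 10.4% higher and 1.74% lower, had a median of 0.17. Differences between the classes were not tested.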

How the data were processed

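Total RNA was purified on columns and made into directional libraries, per the labels' protocols. The authors deposited 1 table per library whose columns, per the file headers, are Coverage, FPKM and TPM. The deposited coverage is used as a signal, the mean depth over a gene. In some genes with several transcripts it lay far below what the FPKM implies. For LINC00152, at 209 TPM in AS, coverage was 3.97 in AS, or 0.0114 of the library's coverage per FPKM. The deposited FPKM differs from the deposited TPM by 1 constant per library. Annotated genes summed to 968917 TPM in AS and 973681 TPM in SC, and assembled loci to a further 1000000 in each, so the TPM column is not a single TPM scale over all rows. No source used here names the aligner or the quantification program. Read counts are not in the columns used, so precision at low levels is unknown.

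The submitters' processing notes name GRCh38 and hg38, whereas the deposited coordinates are those of GRCh37 and are printed as such. RefSeq promoters and the microRNA are on GRCh38.p14. GENCODE 29 was joined by gene ID alone, so its transcripts can differ in extent from the deposited genes.

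Rows of 1 symbol were summed, and ratios took a pseudocount of 1 TPM. Coverage was divided by the library's coverage per FPKM and multiplied by its TPM per FPKM (2.13 in AS and 1.98 in SC). The assembled locus is the one on the same strand that best overlaps the gene, by at least 50% of the shorter. The named genes are members of at least 5 TPM in either library, the 10 largest and 10 smallest ratios, members at 0 in 1 library and at least 1 TPM in the other, and members of the role lists. Some others (LINC00174, LINC00630, LINC00677, LINC00882, LINC00886 and LINC00926) were named after their values were seen. One gene of the list of NORAD partners is not reported here. Members and lists were chosen with earlier results of these data known. The code for the ratios was run on simulated data in which only genes of at least 5 TPM were raised. That run does not bear on calls at lower levels. Python 3.11.15, pandas 2.3.3, numpy 2.4.6, scipy 1.17.1 and matplotlib 3.10.9 were used.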

Additional observations from a re-analysis of the deposited data

How the results depend on the processing

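No paired analysis was possible because each group is 1 library, and for the same reason no replicate could be left out. Against 12 LINC genes higher, 2 lower and a median ratio of 0.17, a pseudocount of 0.1 gave 28 higher and 14 lower, 0.5 gave 21 and 8, and 5 gave 1 and 1. Coverage gave 4 higher and a median of 0.068, with 1 added to values that were in some genes far below 1. Assembled loci gave 7 lower and a median of 0.024, and those of like extent, chosen after seeing the data, gave 12 higher, 3 lower and a median of 0.051. Centring on the median of all genes, 0.30, gave 4 higher, 10 lower and a median of -0.13, which is of the opposite sign. A shift by the trimmed mean, 0.28, gave 4, 10 and -0.11, also of the opposite sign. Without a filter on level the median was 0.044. Leaving out same-strand overlaps left 7 higher of 86 genes (8.14%), and leaving out overlaps on either strand left 5 of 56 (8.93%). The share over all members, these included, was 10.4%, and no share of all genes under these 2 filters is given here. Keeping genes with coverage and FPKM in proportion, also chosen after seeing the data, left 4 of 53. Other filters on level, FPKM, the highest row of a symbol and members without a RefSeq protein kept both counts within 1.5 times and the median above 0. Read counts are not given here, so the ratios of genes under about 1 TPM have an unknown counting error.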

Other observations

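Several LINC genes share much of their sequence with another annotated gene, so that their separate values can depend on how reads were divided. Of 108 members with a transcript, 11 shared more than 50% of their 31-base words with other gene IDs, and the median share was 4.26%. LINC00941 is among the 11, but shared 92.2% with another ID of its own symbol. LINC00843 shared 59.6% with PARGP1, which it overlaps, so shared words need not mean a copy. LINC01106 and LINC01123 shared 90.4% of the words of LINC01106. Their gene rows had 4.48 TPM in AS and 3.05 TPM in SC for LINC01106, and 4.50 and 3.88 TPM for LINC01123. For LINC01106 the assembled locus gave a ratio of -0.44, where the gene row gave 0.44. The locus of LINC01123 spanned 100% of the gene in AS and 18.6% in SC, so its levels are not set against each other. LINC00319 shared 92.4% of its words with CU639417.4, and LINC00313 shared 65.6% with LINC01669. LINC00893, which overlaps IDS and CXorf40A, had a TPM ratio of -0.53. Its locus had 1.00 TPM in AS and 22.2 TPM in SC but spanned 16.2% of the gene in AS and 98.9% in SC, so no ratio is given. These genes were chosen after their values were seen.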
